A study of Mus musculus with 16 samples.

Results

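The enzymes described here make, activate or break down eicosanoids and related oxylipins, the signalling lipids that cells produce from omega-6 and omega-3 fatty acids. They were chosen by name, as the genes of the count table whose Ensembl identifiers map to Ptgs1, Ptgs2, Ptges, Hpgd, Alox5, Alox5ap, Alox12, Alox15, Ltc4s and Ephx2. All 10 were found among the 21965 genes of the table, and 8 of them were among the 13811 genes with enough reads to be tested. Alox12 and Alox15 did not pass the filter on low counts. RNA was sequenced from the terminal ileum of 16 male C57BL/6 mice, 1 library per mouse. WT PF (n = 4) and WT EtOH (n = 3) were wild-type littermates of the fat-1 mice. Mice of fat-1 PF (n = 4) and fat-1 EtOH (n = 5) carried 1 copy of fat-1, a desaturase of Caenorhabditis elegans that turns n6 into n3 fatty acids in all tissues. All mice were 8 to 10 weeks old at the start and drank a Lieber-DeCarli liquid diet, which held ethanol for EtOH mice, raised in steps to 6%, and an equal energy as maltose dextrin for pair-fed (PF) mice. Feeding lasted 6 weeks, with 3 weeks at the highest ethanol level. The transgene is not a gene of the count table, and the genotype label was therefore not checked from the counts.

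Phospholipases free arachidonic acid and its relatives from membranes, and separate enzyme families then oxygenate them. The cyclooxygenases Ptgs1 and Ptgs2 open the prostaglandin route, which Ptges ends as a prostaglandin E synthase and Hpgd shuts off by oxidizing prostaglandins. Alox5, presented with its substrate by Alox5ap, opens the leukotriene route, and Ltc4s adds glutathione to make the first cysteinyl leukotriene, while Alox12 and Alox15 make hydroxy fatty acids. Ephx2, the soluble epoxide hydrolase, turns the epoxides that P450 enzymes make into diols. In the gut, prostaglandin E2 is known for its part in mucosal protection, and tuft cells and leukocytes are known sources of cysteinyl leukotrienes.

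Libraries held 8422645 to 11438539 counts in genes, so that 3 counts corresponded to 0.246 to 0.421 CPM, the count scaled to a common library size. Ileal identity was checked first, because several libraries stood apart. Fabp6, the ileal bile acid binding protein, was at 845 to 4906 CPM in 12 of the libraries, but at 26.1 and 3.31 CPM in fat-1 PF mice 2 and 4. Slc10a2, the ileal bile acid transporter, was at 7.58 and 3.56 CPM in the same libraries and at 394 to 1382 CPM in all others. In these 2 libraries the summed level of 15 proximal small intestine markers was 61995 and 63775 CPM, against 3037 to 18924 CPM in the other PF mice and 180 to 998 CPM in all EtOH mice. Summed large intestine markers reached 6466 CPM in WT EtOH mouse 2 and 13947 and 15531 CPM in fat-1 EtOH mice 3 and 4, with 439 to 1504 CPM elsewhere. Fabp6 was at 118 and 586 CPM in fat-1 EtOH mice 3 and 4. Fits without these libraries, alternatives chosen after seeing the data, are given beside the results they bear on. In bulk tissue, fewer cells of a type and less RNA per cell cannot be told apart.

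Per kilobase of exon, Hpgd and Ephx2 were far more abundant than the other enzymes. Hpgd (mean 145 CPM per kb over 16 libraries) and Ephx2 (106 CPM per kb) stood at the 97.6th and 96.6th percentiles of all genes tested. Hpgd was above Ephx2 in 13 of 16 libraries, and Ephx2 was above the next gene in 16 of 16. Ltc4s (6.46 CPM per kb, 57.4th percentile) and Ptgs1 (5.85 CPM per kb, 54.8th percentile) followed, in an order that the libraries did not share, since Ltc4s was above Ptgs1 in 3 of 16. Below them came Alox5ap at 3.25, Ptges at 1.27, Alox5 at 0.964 and Ptgs2 at 0.861 CPM per kb, from percentile 41.2 down to percentile 17.4. Of these neighbours Alox5ap was above Ptges in 15 of 16 libraries, Ptges above Alox5 in 11 and Alox5 above Ptgs2 in 10. Alox15 (0.140 CPM per kb) and Alox12 (0.123 CPM per kb) were lowest, each above the other in 8 libraries. Alox5 was measured from few reads, with 13 to 83 counts in a library.

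**Figure D1:**
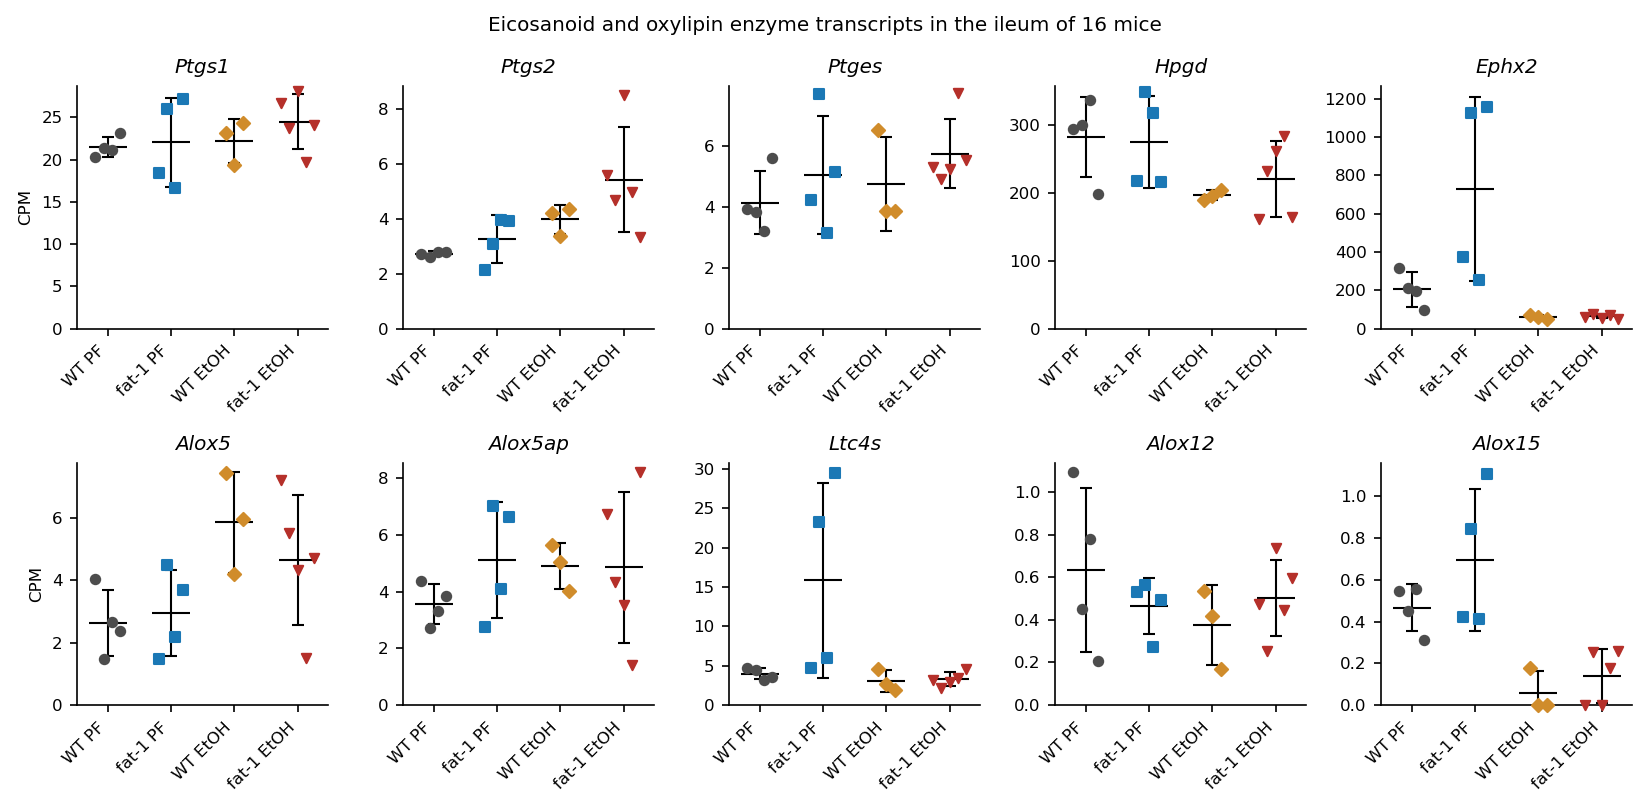
Level of each of the 10 enzymes in CPM (y axis, linear from 0, scaled per gene) in every mouse, with 1 symbol per mouse and the group mean ± SD as black lines. Ephx2 lay between 49.5 and 75.7 CPM in all EtOH mice and above them in all PF mice, and the fat-1 PF groups of Ephx2 and Ltc4s were each split into a high and a low pair.

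The bases just upstream of the annotated starts are shown for Ptgs2, Alox5, Hpgd and Ltc4s, since these genes were called between the diets when both genotypes were averaged. They come from RefSeq on GRCm38.p6, which had a promoter window for 7 of the 10 genes. Windows for Ephx2, Alox5ap and Alox15 were not analysed here. Capitals mark the motifs found among those searched on both strands of 300 bases, from 250 before to 50 after the start. The stretches are chr1:150099781-150100030 on the plus strand for Ptgs2, chr6:116461179-116461428 on the minus strand for Alox5, chr8:56294302-56294551 on the plus strand for Hpgd and chr11:50238617-50238782 on the minus strand for Ltc4s, the last ending where GENCODE places an earlier start.
Ptgs2 promoter: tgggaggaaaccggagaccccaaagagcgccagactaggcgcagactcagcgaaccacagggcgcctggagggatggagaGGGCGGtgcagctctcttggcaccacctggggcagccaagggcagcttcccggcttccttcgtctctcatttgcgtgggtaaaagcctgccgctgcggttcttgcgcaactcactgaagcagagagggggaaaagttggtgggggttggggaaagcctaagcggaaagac
Alox5 promoter: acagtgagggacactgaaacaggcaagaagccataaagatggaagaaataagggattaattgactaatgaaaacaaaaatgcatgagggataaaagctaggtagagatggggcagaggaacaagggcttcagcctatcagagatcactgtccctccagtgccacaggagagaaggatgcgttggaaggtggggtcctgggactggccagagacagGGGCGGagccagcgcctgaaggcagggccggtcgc
Hpgd promoter: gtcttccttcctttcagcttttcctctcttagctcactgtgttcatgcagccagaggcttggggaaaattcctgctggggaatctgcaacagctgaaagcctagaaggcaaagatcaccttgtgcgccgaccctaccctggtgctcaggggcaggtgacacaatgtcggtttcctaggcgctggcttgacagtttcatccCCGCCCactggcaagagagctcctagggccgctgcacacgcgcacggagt
Ltc4s promoter: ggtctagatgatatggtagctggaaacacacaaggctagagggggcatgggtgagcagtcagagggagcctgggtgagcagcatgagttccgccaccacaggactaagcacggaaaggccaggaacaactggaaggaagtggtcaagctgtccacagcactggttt
Within the 30 bases chr1:150100035-150100064, just after the start of Ptgs2, an E-box stands in capitals and overlaps a CRE half-site that ends in its first letters.
Ptgs2 E-box: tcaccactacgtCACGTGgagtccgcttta
The GC box (GGGCGG) was in 5 of 7 windows of these enzymes, namely Ptgs2, Ptges, Alox5, Hpgd and Alox12, and in 35.7% of 32851 RefSeq windows. In Alox5 it lay 35 bases before the start, in Hpgd 50 bases, on the opposite strand as CCGCCC, and in Ptgs2 170 bases. The E-box (CACGTG), 17 bases after the start, was found in Ptgs2 alone of the 7, and in 7.15% of all windows. The CRE half-site (TGACG) was likewise in Ptgs2 alone, 14 bases after the start, and in 20.8% of all windows. The TATA box (TATAAA) was in the Hpgd window alone, 5 bases after the start, against 13.6% of all windows. All these distances are counted from the RefSeq start. GENCODE places the start of Hpgd further downstream, at 56294585, so the printed stretch ends short of it and the TATA box lies before it. The CAAT box (CCAAT, 37.4% of all windows), the CRE (TGACGTCA, 1.79%) and the AP-1 site (TGANTCA, 7.81%) were in none of the 7. Neither the Ltc4s nor the Ptgs1 window held any of these letters. The Ptgs2 stretch had a GC content of 61.6%, Hpgd 56.8%, Ltc4s 55.4% and Alox5 52.8%. The median over the 250 upstream bases of all windows was 52.4%.

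Genes were called at an adjusted p of at most 0.05 in edgeR's quasi-likelihood fit, with p-values adjusted by Benjamini-Hochberg over all 13811 genes. Between the genotypes on the PF diet, 0 of 8 enzymes were called, with a background of 0% of all genes, and 2 had an unadjusted p under 0.05, as did 12.7% of all genes. DESeq2 called 1 enzyme and 189 of all genes, and limma voom called 0 enzymes and 30 of all genes. Between WT EtOH and WT PF, 0 of 8 were called against a background of 0.0796%, and 3 had an unadjusted p under 0.05, as did 14.1% of all genes. DESeq2 called 1 enzyme and 257 of all genes there, and limma voom called 4 enzymes and 2853 of all genes. Between fat-1 EtOH and fat-1 PF, 3 of 8 were called against a background of 37.4% of all genes, Ptgs2 higher and Ltc4s and Ephx2 lower. Between fat-1 EtOH and WT EtOH, 0 of 8 were called against a background of 0.00724%, and 0 had an unadjusted p under 0.05, with 0 called by DESeq2 and by limma voom. The interaction of genotype and diet called 0 of 8 and 0% of all genes, with 2 enzymes and 8.26% of all genes at an unadjusted p under 0.05 and 0 enzymes called by DESeq2 and by limma voom. Averaged over both genotypes, EtOH against PF called 5 of 8, against a background of 35.9%, with Ptgs2 and Alox5 higher and Hpgd, Ltc4s and Ephx2 lower. This averaged comparison uses the same mice as the comparisons within a genotype. The enzymes' median log2 fold change was 0.27 between genotypes on the PF diet, against 0.02 over all genes tested. It was 0.04 between fat-1 EtOH and fat-1 PF, against 0.05 over all genes tested, and 0.15 in the averaged comparison, against 0.04. The 3 of 8 called in fat-1 mice lie at the background, and with 8 genes the 5 of 8 in the averaged comparison are a count without a test of their own.

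**Figure D2:**
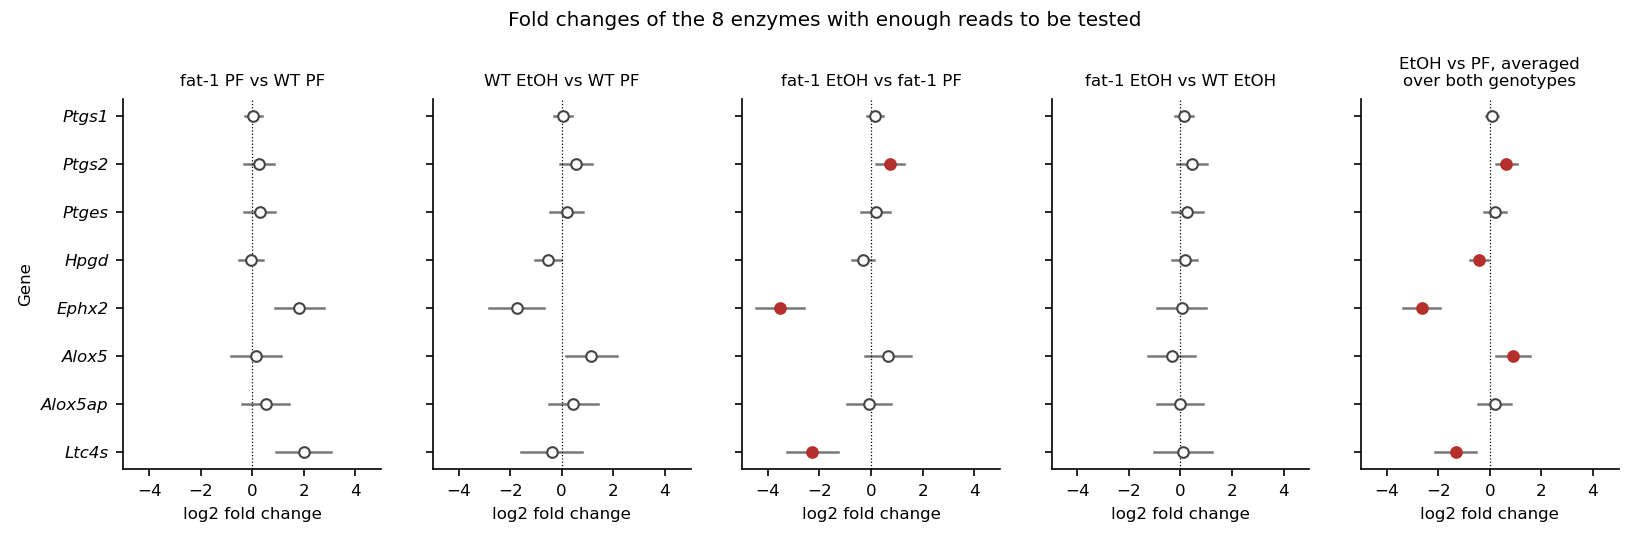
Log2 fold change (x axis) of the 8 tested enzymes in 5 comparisons, as points with 95% confidence intervals from edgeR, with filled red points for an adjusted p of at most 0.05. Ephx2 and Ltc4s lay to the right of 0 in fat-1 PF against WT PF, and Ephx2 was the farthest to the left in each comparison of EtOH with PF.

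Ptgs1, the constitutive cyclooxygenase (chr2:36230426-36252272, plus strand), differed least among mice. It was at 20.3, 21.4, 21.1 and 23.2 CPM in WT PF mice and at 18.4, 25.97, 16.7 and 27.1 CPM in fat-1 PF mice. In WT EtOH mice it was at 23.1, 19.3 and 24.3 CPM and in fat-1 EtOH mice at 26.7, 23.7, 28.1, 19.7 and 24.1 CPM. All groups overlapped, and the highest library was 1.69-fold above the lowest. Averaged over genotypes, the log2 fold change of EtOH over PF was 0.10 ± 0.11 (SE, edgeR adjusted p = 0.499), with a 95% interval of -0.14 to 0.34. Without the 5 libraries that stood apart it was 0.33 (adjusted p = 0.0131). A gene on the opposite strand, Gm43621, shares 148 exonic bases with Ptgs1, and whether strand was used in counting is not given in the sources used here.

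Ptgs2, the inducible cyclooxygenase (chr1:150100031-150108227, plus strand), was higher with EtOH. WT PF mice lay close together at 2.73, 2.60, 2.78 and 2.81 CPM, and fat-1 PF mice were at 2.12, 3.09, 3.96 and 3.93 CPM. WT EtOH mice were at 4.21, 3.36 and 4.37 CPM, and fat-1 EtOH mice at 5.61, 4.68, 8.53, 5.00 and 3.34 CPM. The WT groups did not overlap, whereas the lowest fat-1 EtOH mouse lay below the 2 highest fat-1 PF mice. In fat-1 mice Ptgs2 rose by 0.73 ± 0.25 on the log2 scale, or 1.66-fold (95% interval 0.19 to 1.28, edgeR adjusted p = 0.0352). The call rested on single libraries, since it was lost without fat-1 PF mouse 1 or 2 or fat-1 EtOH mouse 1 or 3, with log2 fold changes of 0.52 to 0.88 over all omissions and adjusted p up to 0.0913. It was also lost without the 3 libraries rich in large intestine markers (0.50, adjusted p = 0.131), without the 2 richest in proximal markers (0.85, adjusted p = 0.102) and without all 5 (0.61, adjusted p = 0.196), as well as by limma voom (adjusted p = 0.0575) and in a fit of these groups alone (adjusted p = 0.102). In WT mice the difference was 0.54 ± 0.29 (adjusted p = 0.405), which limma voom called at 0.57 (adjusted p = 0.0338), and an exact two-sided permutation test gave p = 0.0286, the smallest that 3 mice against 4 allow, or 0.228 after adjustment over the 40 exact tests run. Averaged over genotypes, Ptgs2 rose by 0.64 ± 0.19, or 1.56-fold (95% interval 0.23 to 1.05, adjusted p = 0.0187), and this call held on leaving out each of the 16 libraries and under each removal of the libraries that stood apart (0.58 to 0.70, adjusted p 0.0291 to 0.0446). Fat-1 EtOH mice were 0.45 ± 0.27 above WT EtOH mice (adjusted p = 0.757), and 0.079 (adjusted p = 1) without the 3 libraries rich in large intestine markers. Per kilobase, the ratio of Ptgs1 to Ptgs2 had a median of 9.33 (8.77 to 9.74) in WT PF mice and 6.55 (6.47 to 6.78) in WT EtOH mice. In fat-1 mice the ratio was 9.03 (4.96 to 10.3) with PF and 5.62 (3.89 to 8.53) with EtOH. Smooth muscle markers moved with Ptgs2. Their summed level was 1170 to 1564 CPM with PF and 2132 to 2790 CPM with EtOH in WT mice, and 1006 to 1474 CPM and 2021 to 4310 CPM in fat-1 mice, with none of the 9 at 0, and 9 of 9 were called higher in the averaged comparison, beside 18.3% of all genes. Over 16 libraries, which share depth, log2 levels of Ptgs2 and of these summed markers had a Pearson r of 0.789. Summed mast cell markers, most of which is Kit, followed Ptgs2 almost as closely (r = 0.756), with r = -0.675 for proximal small intestine and 0.574 for large intestine markers. Ptgs2 per 100 CPM of smooth muscle markers averaged 0.206 CPM in WT PF and 0.169 CPM in WT EtOH mice, and 0.284 CPM in fat-1 PF and 0.182 CPM in fat-1 EtOH mice. The part of smooth muscle, of tissue region and of the other cells in the result was not tested.

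Ptges, the microsomal prostaglandin E synthase (chr2:30889471-30929863, minus strand), was not called. Its levels were 3.93, 3.85, 3.22 and 5.61 CPM in WT PF mice and 4.24, 7.72, 3.14 and 5.15 CPM in fat-1 PF mice. With EtOH, WT mice were at 6.54, 3.88 and 3.86 CPM and fat-1 mice at 5.32, 4.93, 5.25, 7.76 and 5.56 CPM. Each group overlapped the others, and the averaged log2 fold change of EtOH over PF was 0.19 ± 0.20 (95% interval -0.23 to 0.62, edgeR adjusted p = 0.47), or 0.42 (adjusted p = 0.145) without the 5 libraries that stood apart.

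Hpgd, the prostaglandin dehydrogenase (chr8:56294585-56321043, plus strand), was lower with EtOH in the averaged comparison, by a small step. It was at 293, 299.9, 336 and 198 CPM in WT PF mice and at 217, 348, 317 and 216 CPM in fat-1 PF mice. WT EtOH mice were at 189, 195 and 204 CPM and fat-1 EtOH mice at 161, 231, 262, 284 and 164 CPM. WT EtOH mice overlapped the lowest WT PF mouse alone, and fat-1 EtOH mice overlapped 2 of the fat-1 PF mice. The averaged log2 fold change was -0.42 ± 0.16, or 1.34-fold lower (95% interval -0.75 to -0.09, edgeR adjusted p = 0.048). The call held on leaving out WT PF mouse 4, fat-1 PF mouse 1 or 4 or fat-1 EtOH mouse 3 or 4, and was lost on leaving out any other of the 16 libraries (adjusted p 0.0223 to 0.104 over all), as well as without the 2 libraries richest in proximal markers (-0.40, adjusted p = 0.0949), while it held without all 5 libraries that stood apart (-0.51, adjusted p = 0.039). Within WT mice the difference was -0.52 ± 0.24 (adjusted p = 0.336), which limma voom called at -0.58 (adjusted p = 0.0194), and within fat-1 mice -0.32 ± 0.20 (adjusted p = 0.234). The averaged call was also lost with upper-quartile normalization (-0.31, adjusted p = 0.117), with a looser or stricter count filter (adjusted p = 0.056 and 0.0587) and with the replicate block (adjusted p = 0.0562). Over 16 libraries log2 levels of Hpgd had an r of -0.681 with summed tuft cell markers and of -0.601 with fibroblast and mesothelium markers. The latter summed to 221 to 331 CPM with PF and 293 to 417 CPM with EtOH in WT mice, and to 209.5 to 252 CPM and 284 to 472 CPM in fat-1 mice. Of their 9 genes, 5 were called higher in the averaged comparison, beside 18.3% of all genes. The part of these cells in the Hpgd difference was not tested.

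Alox5, the arachidonate 5-lipoxygenase (chr6:116410077-116461178, minus strand), was higher with EtOH in the averaged comparison. It was at 4.04, 1.47, 2.67 and 2.39 CPM in WT PF mice and at 1.48, 4.49, 2.19 and 3.68 CPM in fat-1 PF mice. WT EtOH mice were at 7.43, 4.20 and 5.97 CPM and fat-1 EtOH mice at 7.22, 5.53, 4.35, 1.52 and 4.70 CPM. The WT groups did not overlap, and in fat-1 mice EtOH mice 3 and 4 lay within the PF range. The averaged log2 fold change was 0.90 ± 0.31, or 1.87-fold (95% interval 0.24 to 1.57, edgeR adjusted p = 0.0354). The call was lost on leaving out WT PF mouse 2, 3 or 4, fat-1 PF mouse 1 or 3, WT EtOH mouse 1 or 3 or fat-1 EtOH mouse 1 (adjusted p 0.00851 to 0.0914 over all 16 omissions). It was also lost with the replicate block (0.79, adjusted p = 0.106). Without the 5 libraries that stood apart the averaged value was 1.52 (adjusted p = 0.00289). In WT mice the difference was 1.15 ± 0.46 (adjusted p = 0.292), which limma voom called at 1.23 (adjusted p = 0.016) and which was 1.35 (adjusted p = 0.0493) without the 5 libraries. In fat-1 mice it was 0.66 ± 0.42 (adjusted p = 0.223), which became 1.69 (adjusted p = 0.025) without the 5 libraries. Fat-1 EtOH mice differed from WT EtOH mice by -0.33 ± 0.43 (adjusted p = 0.807).

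Alox5ap, the 5-lipoxygenase activating protein (chr5:149264767-149288153, plus strand), was at 4.37, 2.72, 3.33 and 3.85 CPM in WT PF mice and at 2.76, 7.02, 4.10 and 6.63 CPM in fat-1 PF mice. With EtOH, WT mice were at 5.64, 5.04 and 4.03 CPM and fat-1 mice at 6.75, 4.34, 3.53, 1.43 and 8.21 CPM. The fat-1 EtOH group held both the lowest and the highest value of all 16 mice. The averaged log2 fold change of 0.19 ± 0.30 was not called (95% interval -0.45 to 0.83, edgeR adjusted p = 0.643), and was 0.69 (adjusted p = 0.0407) without the 5 libraries that stood apart. Gm19719, on the opposite strand, shares 189 exonic bases with Alox5ap.

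Both genes of the 5-lipoxygenase step followed tuft cell markers across libraries. Summed levels of the 16 markers, which include Dclk1, Trpm5 and Pou2f3, were 80.7 to 117 CPM with PF and 130 to 210 CPM with EtOH in WT mice, and 83.6 to 135 CPM and 57.5 to 238 CPM in fat-1 mice. The list also holds Spib (up to 63.6 CPM) and Lrmp (up to 46.6 CPM), which B cells carry too, and its highest sum was in fat-1 EtOH mouse 5, where B-cell follicle markers summed to 628 CPM against 3.03 to 128 CPM in all others. Of 14 tuft cell markers tested, 5 were called higher and 0 lower in the averaged comparison, where 18.3% of all genes were called higher. Without the 5 libraries 11 of 14 were called higher, beside 1767 of all 13716 genes then tested. Over 16 libraries, Pearson's r between log2 levels of Alox5 and of the summed markers was 0.858, and 0.860 for Alox5ap. Alox5 and Alox5ap themselves had an r of 0.736, or 0.851 within groups. Alox5ap also moved with macrophage and dendritic cell markers (r = 0.750), which were highest, at 835.5 CPM, in fat-1 EtOH mouse 5, the mouse with the highest Alox5ap, and had an r of 0.556 with B-cell follicle markers. Summed eosinophil markers had an r of 0.838 with Alox5ap and 0.672 with Alox5. Most of that sum was Siglecf (median 5.49 CPM), while Ear1 and Ear6 were at 0 in 16 libraries, Epx was at 0.257 CPM or less, and of the 2 markers tested 1 was higher and 1 lower in WT EtOH than in WT PF mice. The eosinophil markers summed to 5.14 to 6.89 CPM with PF and 7.24 to 12.6 CPM with EtOH in WT mice, and to 4.37 to 17.4 CPM and 2.59 to 10.6 CPM in fat-1 mice. Alox5 per 100 CPM of tuft cell markers was 2.55 ± 0.70 CPM (SD) with PF and 3.596 ± 0.393 CPM with EtOH in WT mice, and 2.58 ± 0.73 CPM and 3.25 ± 0.95 CPM in fat-1 mice. For Alox5ap the ratio was 3.51 ± 0.18 CPM with PF and 3.09 ± 0.68 CPM with EtOH in WT mice. In fat-1 mice the Alox5ap ratio was 4.51 ± 1.05 CPM with PF and 3.15 ± 0.49 CPM with EtOH. The part of tuft cells, B cells and other leukocytes in the Alox5 result was not tested.

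**Figure D3:**
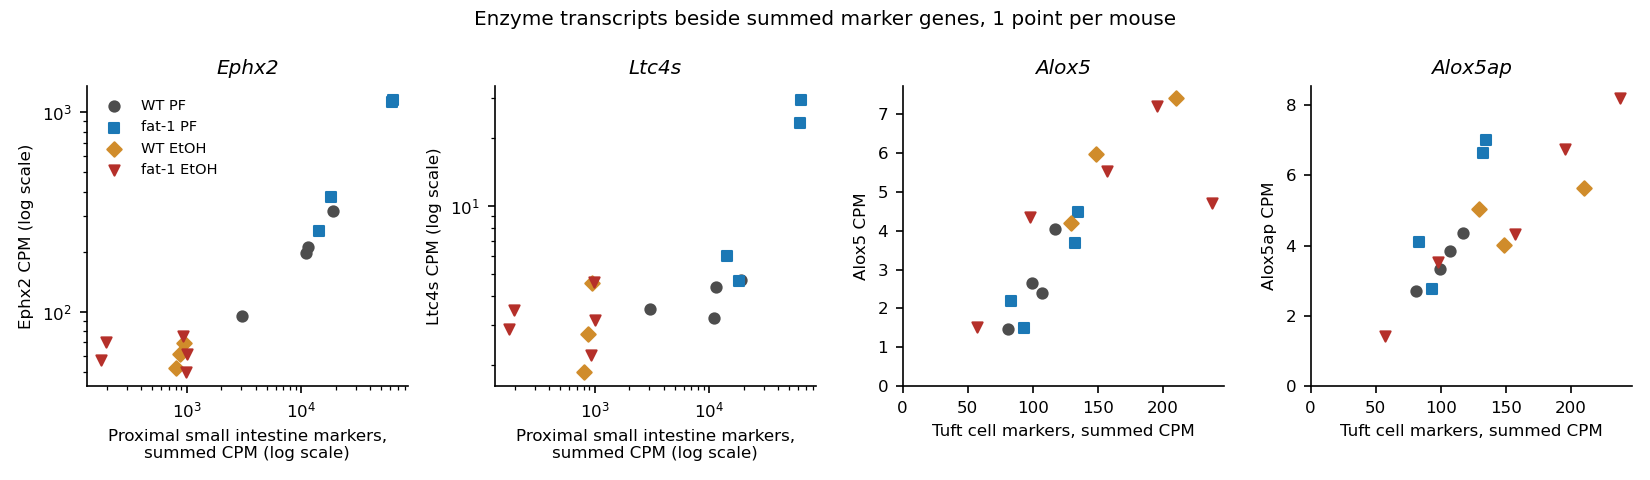
Level of Ephx2 and Ltc4s against summed proximal small intestine markers (log scales, CPM) and of Alox5 and Alox5ap against summed tuft cell markers (linear scales, CPM), with 1 point per mouse. The 2 fat-1 PF mice with 61995 and 63775 CPM of proximal markers held the 2 highest values of both Ephx2 and Ltc4s.

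Ltc4s, the leukotriene C4 synthase (chr11:50236461-50238616, minus strand), was higher in a pair of fat-1 PF mice than in all others. It was at 4.70, 4.41, 3.22 and 3.53 CPM in WT PF mice and at 4.66, 23.3, 6.01 and 29.5 CPM in fat-1 PF mice. WT mice given EtOH were at 4.57, 2.73 and 1.85 CPM and fat-1 EtOH mice at 3.14, 2.21, 2.87, 3.48 and 4.62 CPM. Fat-1 PF mice 2 and 4, in which Fabp6 and Slc10a2 were near 0, were far above every other library. In these 2 mice the 11 ileum markers summed to 4175 and 4494 CPM, against 8091 to 11735 CPM in WT PF mice. That list includes Muc13, which was at 1539 CPM or more in every library. In fat-1 mice Ltc4s fell by 2.27 on the log2 scale with EtOH (SE 0.47, 95% interval -3.28 to -1.27, edgeR adjusted p = 0.00242), which is 4.84-fold. Without fat-1 PF mice 2 and 4 the difference was -0.70 (adjusted p = 0.155), and without all 5 libraries that stood apart -0.67 (adjusted p = 0.245). The averaged value of -1.33 ± 0.37, or 2.51-fold lower (95% interval -2.11 to -0.54, adjusted p = 0.0125), became -0.54 (adjusted p = 0.104) without these 2 mice, -0.48 (adjusted p = 0.199) without the 5 and -1.26 (adjusted p = 0.0588) without the 3 rich in large intestine markers. In WT mice the difference was -0.38 ± 0.56 (adjusted p = 0.795). On the PF diet fat-1 mice were 1.99 ± 0.50 above WT mice (95% interval 0.92 to 3.07, adjusted p = 0.187), with an exact permutation p of 0.0571. That difference was called on leaving out fat-1 PF mouse 1 or 3 (lowest adjusted p 0.0453), and was 0.42 (adjusted p = 1) without mice 2 and 4. The interaction was -1.90 ± 0.72 (unadjusted p = 0.0191, adjusted p = 0.595), and -0.33 (adjusted p = 0.865) without mice 2 and 4. Log2 levels of Ltc4s and of the summed proximal markers had an r of 0.733 over 16 libraries, and the part of proximal tissue was not tested. Of 9 neutrophil markers 2 were tested, Csf3r and Mmp9 (up to 17.1 CPM), while Ngp was at 0 in 15 libraries. The summed neutrophil markers had an r of 0.721 with Ltc4s. Mast cells also make this enzyme, and their 12 markers summed to 18.0 to 23.1 CPM with PF and 27.4 to 38.9 CPM with EtOH in WT mice, and to 15.0 to 19.8 CPM and 28.9 to 93.3 CPM in fat-1 mice. Most of this was Kit (7.58 to 87.1 CPM), which other cells of the gut wall carry too, followed by Mcpt1 (0.714 to 4.24 CPM) and Mcpt2 (0.268 to 1.78 CPM), while Cpa3 was at 0.561 CPM or less and Tpsab1 at 0 in 14 libraries. Of the 3 mast cell markers tested, 1 was higher and 2 were lower with EtOH in the averaged comparison, with a median log2 fold change of -0.13, and Kit alone was called. The part of these cells in the level of Ltc4s was not tested. Gm26542, on the opposite strand, shares 268 exonic bases with Ltc4s.

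Of the other lipoxygenases, Alox12 (chr11:70241457-70255353, minus strand) had 10, 4, 7 and 2 counts in WT PF mice, 5, 4, 2 and 4 in fat-1 PF mice, 6, 4 and 2 in WT EtOH mice and 5, 3, 9, 5 and 7 in fat-1 EtOH mice. A difference between these groups was not detectable at this depth. Alox15 (chr11:70344152-70352031, minus strand) had 5, 4, 5 and 3 counts in WT PF mice, 4, 6, 3 and 9 in fat-1 PF mice, 2, 0 and 0 in WT EtOH mice and 0, 3, 0, 2 and 3 in fat-1 EtOH mice. In CPM the EtOH mice lay below the PF mice in both genotypes, without overlap. Exact two-sided permutation tests on log2(CPM + 0.5) gave p = 0.0286 in WT and 0.00794 in fat-1 mice, each the smallest its group sizes allow, or 0.228 and 0.106 after adjustment over 40 tests. All EtOH libraries held 3 counts or fewer, and no fold change is given.

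Ephx2 (chr14:66084374-66124500, minus strand) had the widest span of the 10 genes after Alox15, which reached 0, with a 23.4-fold distance from lowest to highest mouse. WT PF mice were at 318, 211, 196 and 95.3 CPM and fat-1 PF mice at 375, 1126, 253 and 1157 CPM. WT EtOH mice were at 69.7, 60.9 and 51.8 CPM and fat-1 EtOH mice at 61.3, 75.7, 57.4, 70.7 and 49.5 CPM. No EtOH mouse reached the lowest PF mouse of either genotype. In fat-1 mice Ephx2 fell by 3.53 on the log2 scale (SE 0.43, 95% interval -4.46 to -2.60, edgeR adjusted p = 0.000247), an 11.6-fold difference. Without fat-1 PF mice 2 and 4 it was -2.32 (adjusted p = 0.00447), and without all 5 libraries that stood apart -2.32 (adjusted p = 0.0161), so that the call held at a smaller size. In WT mice the difference was -1.75 ± 0.49, or 3.37-fold lower (95% interval -2.80 to -0.70, adjusted p = 0.183), which DESeq2 called at -1.76 (adjusted p = 0.0133) and limma voom at -1.76 (adjusted p = 0.00347). The averaged value was -2.64 (adjusted p = 0.000241), and -2.03 without the 2 mice (adjusted p = 0.000595) as well as without the 5 (adjusted p = 0.00271). On the PF diet, fat-1 mice were 1.83 ± 0.44 above WT mice (95% interval 0.88 to 2.77, adjusted p = 0.187), and 0.61 (adjusted p = 1) without mice 2 and 4. Left out alone, fat-1 PF mouse 3 brought the adjusted p to 0.0381, and DESeq2 gave 0.0105. The interaction was -1.78 ± 0.61 (unadjusted p = 0.0115, adjusted p = 0.595), and -0.57 (adjusted p = 0.848) without mice 2 and 4. With EtOH the genotypes were at 60.8 ± 8.95 (WT, SD, n = 3) and 62.9 ± 10.4 CPM (fat-1, SD, n = 5), with a 95% interval of the log2 difference of -0.91 to 1.00. The summed proximal small intestine markers moved with Ephx2 (r = 0.932 between log2 levels over 16 libraries). In the averaged comparison 15 of 15 of these markers were called lower, beside 17.6% of all genes, but the list was chosen with results of these mice known and largely holds genes that the study names as lower with EtOH, so the count is no independent evidence of a direction. Within fat-1 PF mice Ephx2 was 375 and 253 CPM where these markers summed to 18340 and 14216 CPM, and 1126 and 1157 CPM where they summed to 61995 and 63775 CPM. Other lists also moved with Ephx2, with r = -0.790 for smooth muscle, -0.783 for fibroblast and mesothelium, -0.726 for mast cell and 0.774 for neutrophil markers. Of the 9 neutrophil markers only Csf3r and Mmp9 were tested. The part of proximal tissue and of these other cells in the EtOH difference was not tested. Ephx2 and Ltc4s had an r of 0.855 with each other, and 0.735 within groups.

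Other genes of the route were read from lists set by function, and the calls below are from fat-1 EtOH against fat-1 PF unless a comparison is named. In the other 4 comparisons that are not averaged over genotypes, edgeR called 0 genes of these lists. The background for each count below is that 18.7% of all genes were called higher and 18.8% lower in fat-1 EtOH against fat-1 PF. Of 10 tested synthesis enzymes of 15 listed, 3 rose and 3 fell (median log2 fold change -0.25). Ptgis, the prostacyclin synthase, rose by 0.81 ± 0.26 (edgeR adjusted p = 0.0236) from a mean of 3.07 to 5.39 CPM, and Hpgds, a prostaglandin D synthase, by 0.66 ± 0.25 (adjusted p = 0.0478). Lta4h, which makes leukotriene B4, fell by 0.94 on the log2 scale (adjusted p = 0.005), from 362 to 189 CPM, and Ptges2 fell by 0.79. Without the 5 libraries that stood apart they were still called, at -0.50 (adjusted p = 0.0382) and -0.72 (adjusted p = 0.0161), but Lta4h was not without the 2 fat-1 PF mice alone (adjusted p = 0.0625). None of the rises in this list was called without the 2 fat-1 PF mice, nor without the 3 libraries rich in large intestine markers.

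Of 14 tested phospholipases and related enzymes of 19 listed, 5 rose and 3 fell (median 0.14). Pla2g4c, a cytosolic phospholipase, went from 4.22 to 73.7 CPM (4.12 ± 1.29, edgeR adjusted p = 0.0222) and ranged from 7.81 to 48.3 CPM in WT PF and from 84.4 to 1339 CPM in WT EtOH mice. It was 4.07 (adjusted p = 0.057) without the 5 libraries. The secreted phospholipase Pla2g10 rose by 2.35 ± 0.71 (adjusted p = 0.0195), but differed by 0.01 (adjusted p = 0.988) without the 5 libraries. Faah, which degrades fatty acid amides, fell by 1.88 on the log2 scale (adjusted p = 0.000636), from 228 to 61.9 CPM, and this call held without the 5 libraries (-1.01, adjusted p = 0.0231). Pla2g12b fell by 1.84, and was -1.16 (adjusted p = 0.0161) without the 5 libraries but not called without the 2 fat-1 PF mice (adjusted p = 0.119). Pla2g6 fell in the averaged comparison by 0.56, and differed by -0.10 (adjusted p = 0.585) without the 5 libraries.

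Of 12 tested inactivation and transport genes from 13 listed symbols, 2 rose and 4 fell (median -0.41). Ptgr1, a prostaglandin and leukotriene B4 reductase, fell by 2.18 on the log2 scale (edgeR adjusted p = 0.000771), from 159 to 35.0 CPM, beside 150 and 45.1 CPM in WT PF and WT EtOH. The peroxidase Gpx4, which reduces lipid hydroperoxides, fell by 1.76, from 282 to 83.0 CPM. Both calls held without the 5 libraries (adjusted p = 0.0267 and 0.0126). The exporters Abcc1 and Abcc4 rose by 1.26 ± 0.31 and 0.60 ± 0.21, and neither was called without the 5 libraries (adjusted p = 0.156 and 0.337).

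Of 12 tested P450 enzymes of 28 listed, 1 rose and 4 fell (median -0.60). Cyp2c55, an arachidonate hydroxylase, went from 23.9 to 690 CPM (4.86 ± 1.53, edgeR adjusted p = 0.0232), and its difference was 0.54 (adjusted p = 0.649) without the 5 libraries. The enzymes Cyp2c68 and Cyp2j6 fell by 2.23 and 1.55 on the log2 scale. Cyp2j6 held its call without the 5 libraries (adjusted p = 0.0166), whereas Cyp2c68 did not (adjusted p = 0.0613). Cyp2s1 rose in the averaged comparison by 0.25 ± 0.09, or 0.33 (adjusted p = 0.0106) without the 5 libraries, but was not called on leaving out WT PF mouse 2, 3 or 4, fat-1 PF mouse 3 or 4, WT EtOH mouse 1 or 3 or fat-1 EtOH mouse 2 (adjusted p up to 0.109).

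Of 20 tested receptors of 25 listed, 4 rose and 3 fell (median 0.71). Ltb4r1, the high-affinity leukotriene B4 receptor, fell by 2.75 on the log2 scale (edgeR adjusted p = 0.000964), from 11.1 to 1.63 CPM, and the prostaglandin D2 receptor Ptgdr fell by 2.71, from 3.17 to 0.472 CPM. Both calls held without the 5 libraries (adjusted p = 0.0467 and 0.0161). The prostacyclin receptor Ptgir rose by 1.48 ± 0.35 (adjusted p = 0.00513) and was 1.09 (adjusted p = 0.149) without the 5 libraries. Ffar4, a receptor of long-chain fatty acids, rose by 1.57 ± 0.56 (adjusted p = 0.0407) and was -0.04 (adjusted p = 0.952) without the 5 libraries. Ptger3, a prostaglandin E receptor, rose in the averaged comparison by 0.89 ± 0.26, or 0.79 (adjusted p = 0.0375) without the 5 libraries, but was not called without WT EtOH mouse 1 (adjusted p = 0.0613). Without the 5 libraries 0 genes of these 5 lists were called higher by edgeR in fat-1 mice, and 3 synthesis enzymes, 2 phospholipases, 4 inactivation genes, 2 P450 enzymes and 3 receptors were called lower. Over all 13716 genes of that fit, 585 were called higher and 1041 lower.

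**Figure D4:**
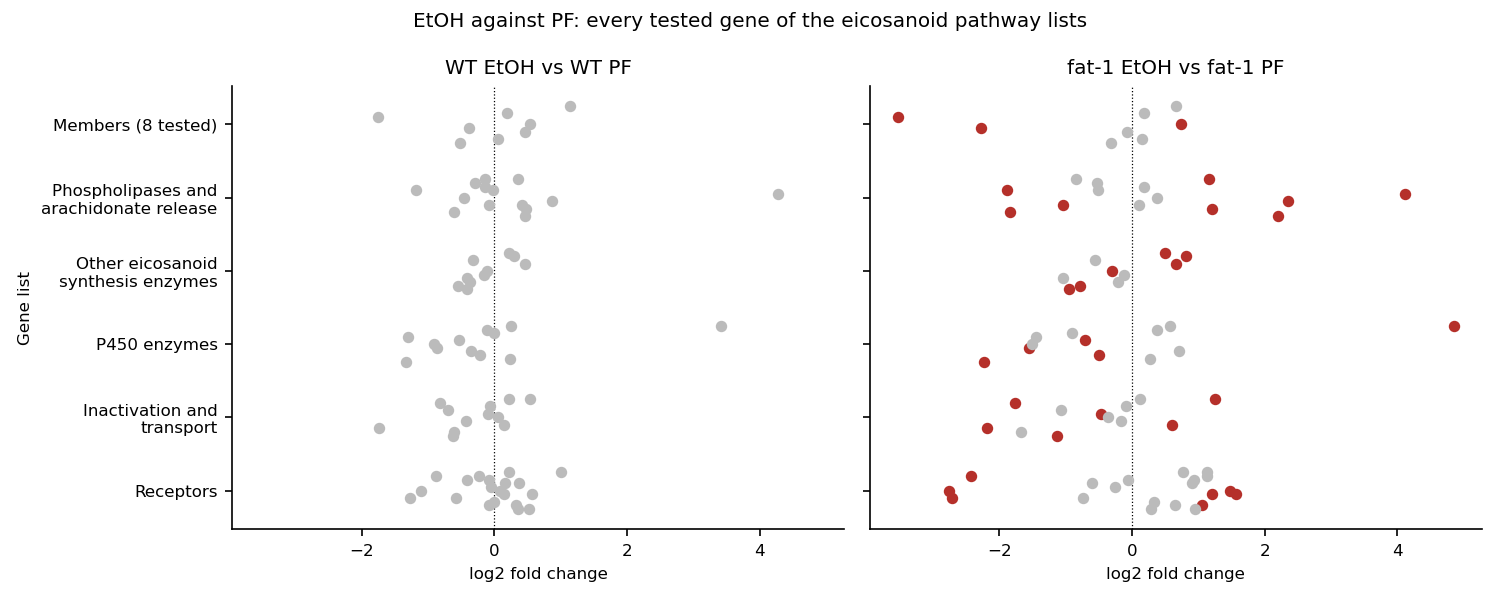
Log2 fold change (x axis) of every tested gene of the enzymes described here and of the 5 other lists of the route (y axis), for EtOH against PF in WT mice and in fat-1 mice, with red points for an edgeR adjusted p of at most 0.05. No point is red in WT mice, and red points lie on both sides of 0 in each list in fat-1 mice.

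The genes most like 7 of the enzymes were taken as the 3 with the highest Pearson correlation of log2 CPM among all genes tested, over 16 libraries that share diet, tissue makeup and depth. For Ephx2 these were Dhrs1 (r = 0.990), Rmdn3 (0.988) and Cgref1 (0.988), and for Ltc4s they were Pgrmc2 (0.953), Cd81 (0.942) and Zfp410 (0.924). Alox5 was nearest to Avil (0.910), Sh2d6 (0.897) and Rgs13 (0.896), and all 3 of these are in the tuft cell list. Hpgd was nearest to Maoa (0.937), the monoamine oxidase, Pigp (0.901) and Eci1 (0.887). Ptgs2 was nearest to Tspan6 (0.896), Enah (0.887) and Twsg1 (0.882). Ptges was nearest to Lrrc4c (0.906), Aifm2 (0.866) and Apip (0.837), and Ptgs1 to Kcnip3 (0.828), Mmp2 (0.805) and Lhfp (0.804).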

How the data were processed

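Poly(A) RNA of the terminal ileum was sequenced with a dUTP strand-marked protocol. The authors aligned reads with tophat2 to mm10, guided by Ensembl 82 transcripts, and deposited raw counts per gene made with htseq; the htseq version and strand setting are not given in the sources used here. The submitters' processing notes also name the builds mm10 and ce10. The deposited values were taken as counts, with 0 per-sample columns left unused, and the transgene is not among them. The study's own test, cuffdiff2, needs reads and was not run.

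Gene names and exon lengths came from GENCODE M21 on GRCm38, with 26 of 21965 identifiers unmatched. Counts were fitted in 1 model with 1 mean per group over 16 libraries by edgeR 4.0.16 (filterByExpr, TMM, robust quasi-likelihood, R 4.3.3), with contrasts for each pair of groups, the interaction and the diet averaged over genotypes, and Benjamini-Hochberg adjustment at 0.05. CPM used TMM-adjusted library sizes. Exact two-sided permutation tests used log2(CPM + 0.5), 40 in all. DESeq2 1.42.0 and limma 3.58.1 were alternatives. Scripts were tested on simulated data. The enzymes and gene lists were chosen with earlier results of these data known. From each other list, at most 2 called genes with the largest rise and 2 with the largest fall per comparison were named. The labels make each library a separate mouse, and no libraries had counts within sampling noise of each other. Total counts of 8422645 to 11438539 limit the low genes. The floors cover counting error only, while the 95% intervals of fold changes include the spread between mice. The likeness of Alox5ap to other genes is not reported here.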

Additional observations from a re-analysis of the deposited data

Results flagged for a closer look

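Ptges stood at 7.76 CPM in fat-1 EtOH mouse 4, while the other 4 mice of that group lay between 4.93 and 5.56 CPM. The gap to the next mouse was 0.778 of the group's whole range, above the limit of 0.71 for 5 values. Of 30 groups of values examined in this way 1 stood out, and chance alone marks about 1 in 20. The same mouse had the lowest Alox5 (1.52 CPM) and Alox5ap (1.43 CPM) of its group and 15531 CPM of summed large intestine markers. The part of tissue region in this value was not tested.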

How the results depend on the processing

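On leaving out 1 library at a time, the enzymes called numbered 0 to 2 between genotypes on the PF diet (1 without fat-1 PF mouse 1, 2 without fat-1 PF mouse 3), 0 in WT EtOH against WT PF, 2 to 3 in fat-1 EtOH against fat-1 PF and 3 to 5 in the averaged comparison (3 without WT PF mouse 2 or 3, fat-1 PF mouse 3, WT EtOH mouse 1 or 3 or fat-1 EtOH mouse 1). DESeq2 called 1 enzyme between genotypes on the PF diet. In WT EtOH against WT PF, DESeq2 called 1, limma voom 4, a fit of the compared groups only 1, and the fit without the 5 libraries that stood apart 1. Averaged over genotypes, 3 were called with the replicate block, 3 without the 2 libraries richest in proximal markers and 6 without the 5 libraries, where Ptgs1 (adjusted p = 0.0131) and Alox5ap (adjusted p = 0.0407) gained a call and Ltc4s (adjusted p = 0.199) lost one. In fat-1 EtOH against fat-1 PF the count was 2 to 4 over the alternatives, with 4 under the looser count filter, which also let Alox12 and Alox15 be tested. The replicate block pairs mice of different groups by their replicate number; the check showed no pairing, since deviations of same-numbered libraries had a mean r of -0.0225 over 21 pairs. Under the replicate block the averaged value of Alox5ap changed sign, to -0.0099 (adjusted p = 0.982), and Hpgd (-0.38, adjusted p = 0.0562) and Alox5 (0.79, adjusted p = 0.106) were no longer called. The averaged call of Hpgd was also lost with upper-quartile normalization (-0.31, adjusted p = 0.117) and with a looser (-0.41, adjusted p = 0.056) or stricter (-0.39, adjusted p = 0.0587) count filter. Calls over all genes ranged from 0 to 2853 in WT EtOH against WT PF, 0 to 189 between genotypes on the PF diet and 1626 to 5659 in fat-1 EtOH against fat-1 PF, where the median of all genes moved to 0.20 with upper-quartile normalization and 69% of calls were then higher. In the averaged comparison, calls over all genes ranged from 3373 to 5864 over the alternatives, beside 4955 in the main fit. They ranged from 3798 to 5245 on leaving out 1 library at a time. Of the alternatives to the 24 printed fold changes, 583 kept direction and side of the threshold, 39 lost a call, 15 gained one and 1 changed sign. The cause was not tested. With 3 to 5 mice a group and 2 to 10 counts of Alox12 per library, small differences could not be seen at this depth.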

Other observations

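Of the 24 fold changes of the tested enzymes that are not given with a value, 18 changed sign under at least 1 alternative, and 1 was called under at least 1. Per kilobase, the ratio of Hpgd to Ephx2 had a median of 2.32 in WT PF mice (1.36 to 3.07) and 0.655 in fat-1 PF mice (0.276 to 1.85), beside 4.72 in WT EtOH mice (4.00 to 5.81) and 4.89 in fat-1 EtOH mice (3.88 to 6.73). The EtOH mice of either genotype did not overlap the PF mice in this ratio.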
